A study of Mus musculus with 6 samples.

Results

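The p53 pathway and the apoptosis machinery were followed through 39 genes, picked by name from what their products do. The choice was made with earlier results of these data known. All 39 genes were found among the 27179 Entrez gene identifiers of the table. They are Trp53 with its inhibitors Mdm2 and Mdm4, 19 p53 targets of cell death or of arrest and stress, the mitotic genes Gtse1 and Ckap2, the repair genes Ercc5 and Polk, 3 Gadd45 genes, 7 genes of the BCL2 family, and Apaf1 with the initiator caspase genes Casp8 and Casp9. RNA came from whole lenses of B6/FVB mouse pups on postnatal day 1, with 3 libraries labelled Gclc KO (KO 1 to 3) and 3 labelled Gclc CON (CON 1 to 3). Gclc encodes the catalytic subunit of the enzyme that opens glutathione synthesis. The labels give both groups the same strain, age and tissue, and they name no Cre driver, deleted exon, sex or number of pups per library. Whether each library stands for another animal is not said, and the p-values therefore reflect only how far these libraries spread, which may be technical.

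The transcription factor p53 is made continuously and destroyed through the ubiquitin ligase MDM2, helped by MDM4. Damage or stress stabilises the protein, mostly without more of its mRNA, and its activity is read from its targets, which halt the cell cycle, assist repair, feed back on p53 through Mdm2 or promote cell death. The mitochondrial route of death is set by the BCL2 family, in which BH3-only proteins counter the survival proteins BCL2, BCL-XL and MCL1 and release BAX and BAK, after which APAF1 and caspase 9 assemble into the apoptosome. Death receptors such as FAS use caspase 8 instead. In the lens, parts of this machinery have been linked to the clearing of nuclei and organelles from maturing fibre cells.

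Values below are normalised reads, that is, reads recovered from the deposited log2 values and divided by the size factor of the library. A log2 difference is the KO mean minus the CON mean of the variance-stabilised values as deposited, a scale that shrinks the differences of genes with few reads. Tests are limma on all 11468 genes that passed a filter on low values, with Benjamini-Hochberg adjustment over those genes and a call at an adjusted p under 0.05. The libraries held 20361430 (CON 2) to 61219009 (KO 3) reads in genes. Gclc itself was at 178, 283 and 173 in CON 1 to 3, against 17.9, 72.1 and 58.1 in KO 1 to 3 (adjusted p = 0.0387). Crystallin genes took 59.5% to 68.4% of the reads in CON and 40.5% to 47.5% in KO. Of 11 tested lens markers 8 fell, against 4.39% of all tested genes. Pax6, on the same list, rose from a mean of 5863 to 11085 (adjusted p = 0.0156), where 6.91% of all tested genes rose. The library CON 2, whose column name carries another lane number than the others, was the shallowest. In whole lenses, fewer cells of a type and less RNA per cell cannot be told apart.

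Promoter sequences are shown because p53 acts by binding DNA, as a pair of 10-base elements. RefSeq windows from 250 bases before to 50 bases after an annotated start (build GRCm38.p6) were at hand for 34 of the 39 genes and were searched for the p53 consensus full site, with 0 to 13 bases between its elements and the core C and G of each element kept. The site is the same on either strand. With at most 1 of the 20 letters off it was found for 3 genes, against 0.718% of all 27025 genes with a window. With at most 2 letters off it was found for 7 genes, against 4.71% of all genes. The capitals mark the elements.
Ccng1: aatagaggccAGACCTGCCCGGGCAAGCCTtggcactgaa
Rps27l: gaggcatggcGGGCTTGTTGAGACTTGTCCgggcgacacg
Gtse1: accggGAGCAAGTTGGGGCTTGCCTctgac
Bax: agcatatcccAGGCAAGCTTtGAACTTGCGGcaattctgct
Ckap2: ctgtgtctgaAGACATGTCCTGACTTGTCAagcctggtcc
Sesn1: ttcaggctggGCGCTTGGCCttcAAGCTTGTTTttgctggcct
Gadd45a: ctGGACCTGGTTggctgaGGGCTAGCCCca

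The Ccng1 stretch is chr11:40755452-40755491 on the minus strand, upstream of the gene, and its site starts 195 bases before the start. The Rps27l stretch, chr9:66946286-66946325 on the plus strand, lies in an intron, and its site begins 117 bases before the annotated start. The Gtse1 site spans a start (chr15:85859940-85859969, plus strand) and lies in an exon outside the coding part. These 3 sites had 1 letter off. The other 4 had 2 off. They are chr7:45467069-45467109 for Bax and chr8:22185993-22186032 for Ckap2, both on the minus strand and upstream of the gene, chr10:41887243-41887285 for Sesn1 on the plus strand and in an intron, and chr6:67037436-67037465 for Gadd45a on the minus strand, in an exon outside the coding part. A match of letters is a description and not evidence of binding, and many p53 sites lie outside windows of this size.

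Of the 39 genes, 11 were higher and 2 lower in KO lenses, which is 28.2% and 5.13%, where 6.91% of all tested genes were higher and 4.39% lower. The genes were chosen with earlier results of these data known, so these counts are no independent result. The median log2 difference was 0.37, with 31 differences above 0 and 8 below, against a median of 0.03 over all tested genes. All 39 passed the filter, which used the mean over all 6 libraries. Genes near 0 in most CON libraries, such as Eda2r and Ddit4l, passed it through their KO values. Their calls thus rest on the same values that admitted them to the test. In 15 genes every KO library lay above every CON library, against 16.9% of all tested genes, and in 4 every KO library lay below, against 14.1%. By role, 10 of the 19 p53 targets of death and of arrest rose and 1 fell (median 1.09). The role lists, too, were made with earlier results of these data known. Of the other 20 genes, Casp8 rose and Gadd45g fell (median 0.17). These 20 include Mdm2 and Gadd45a, which are p53 targets as well and did not pass. A further list of 17 tested p53 targets had 3 higher and 1 lower (median -0.04).

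**Figure D1:**
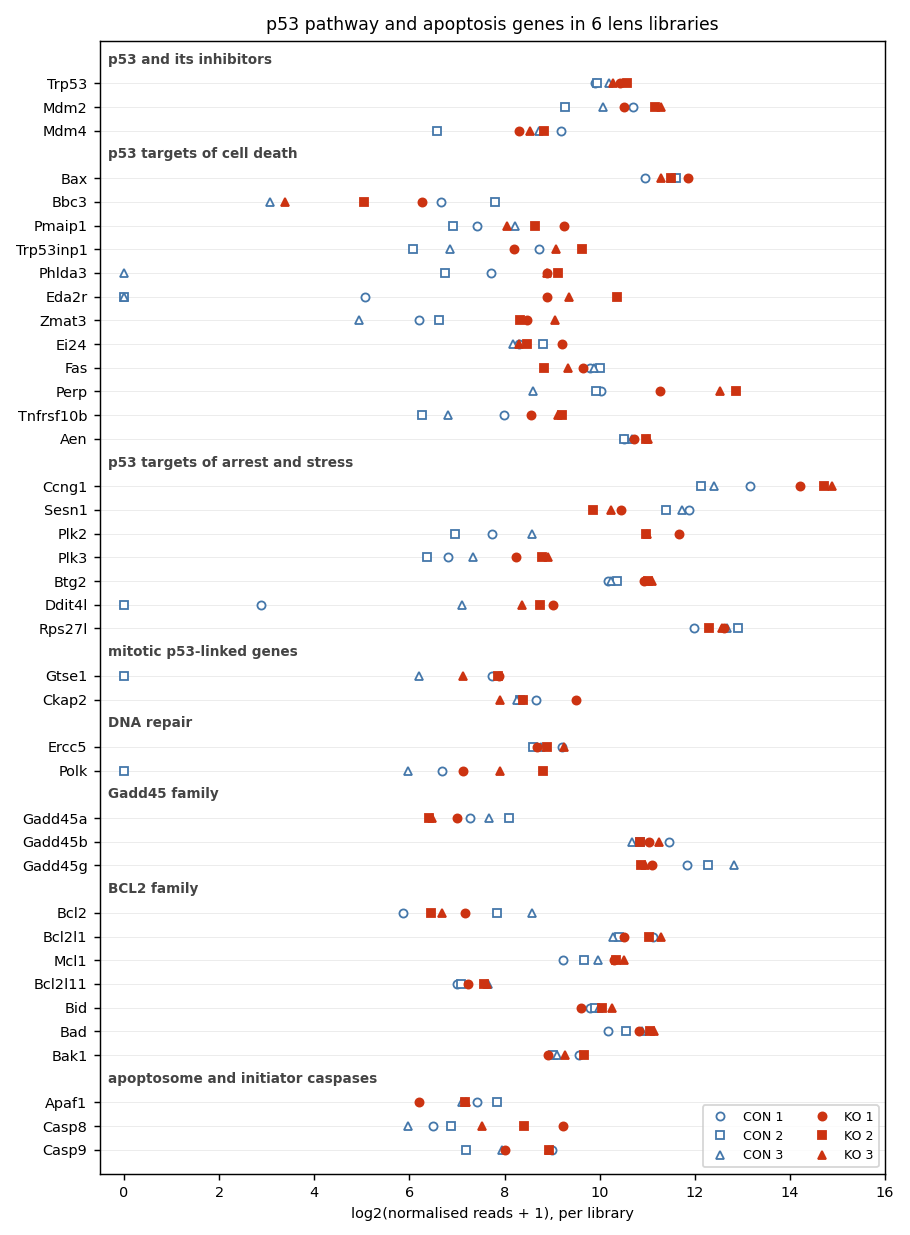
Each row is a gene, grouped by role, and each point a library, on a log2 scale of normalised reads plus 1 (open blue, CON; filled red, KO; circle, square and triangle, libraries 1, 2 and 3). The KO points of Eda2r, Perp, Ccng1 and Plk2 lie clear of the CON points on the right and those of Sesn1 and Gadd45g on the left, while points at 0 are CON libraries without reads.

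Per kilobase of exon, the order of the genes differed between the groups. In CON lenses the highest mean levels were those of Rps27l (7461 normalised reads per kilobase), Gadd45g (4503), Ccng1 (1801) and Bax (1692). In KO lenses Ccng1 came first at 7260.5 per kilobase, followed by Rps27l (7133), Perp (2704), Bax (1916) and Gadd45g (1721). Eda2r was the lowest of the 39 in CON at 1.85 per kilobase and stood at 138 in KO.

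The genes for p53 and its inhibitors did not pass the test. Trp53 stood at 950.1, 985 and 1169.7 in the CON libraries, in the order 1 to 3, and at 1381, 1515 and 1250.0 in the KO libraries. Every KO value lay above every CON value, but the log2 difference was small at 0.37 (95% interval -0.09 to 0.83, adjusted p = 0.299). Mdm2, the ligase gene that p53 itself activates, had 1665, 620.0 and 1071 in CON and 1453, 2306 and 2482 in KO, so that CON 1 overlapped the KO range. Its difference was 0.86 (interval 0.17 to 1.54, adjusted p = 0.104), and it was called without CON 1 (1.15, adjusted p = 0.0234). Mdm4 stood at 367 ± 249.8 (SD, n = 3) in CON, where CON 2 had 94.4, and at 379 ± 72.3 (SD, n = 3) in KO (difference 0.19, interval -0.64 to 1.02).

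Of the 12 p53 targets of cell death, 5 rose, none fell and 7 did not pass (median log2 difference 0.91). Over all tested genes 6.91% rose and 4.39% fell, and this list, too, was made with earlier results known. Eda2r encodes the ectodysplasin A2 receptor, a receptor of the tumour necrosis factor family, and lies on the X chromosome. It had 32.7 normalised reads in CON 1 (31 reads), none in CON 2 and CON 3, and 471, 1314 and 651 in KO 1 to 3. The CON libraries were thus near or at 0, where 3 reads would be 9.44 normalised reads in CON 2 and 4.42 in CON 3, a floor that covers counting error only. The log2 difference was 3.06 (SE 0.36, adjusted p = 0.000517), the largest among the 39. It stayed called whichever single library was left out, but not with voom on recovered reads (7.76, adjusted p = 0.102).

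Perp, which encodes a desmosome-associated tetraspan membrane protein, was the other large rise of this class. It went from 1038, 966 and 385 in CON to 2449, 7457 and 5927 in KO (6.63-fold by the means, log2 difference 2.44, SE 0.40, adjusted p = 0.00313). KO 1 had less than the other KO libraries and still lay well above the highest CON value. Zmat3, the gene of an RNA-binding zinc finger protein, had 72.8, 97.6 and 29.5 in CON and 356, 319.8 and 535 in KO (6.06-fold, log2 difference 1.47, SE 0.28, adjusted p = 0.00708). Perp and Zmat3 remained called whichever library was left out.

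Phlda3, whose product restrains AKT signalling, had 210.1, 107 and 0 in CON and 472, 554 and 473 in KO. The KO libraries were close together and the CON libraries were not (log2 difference 1.70, SE 0.43, adjusted p = 0.0265). Tnfrsf10b, the mouse receptor gene for the death ligand TRAIL, had 252, 75.5 and 112 in CON and 373, 587 and 553 in KO, a log2 difference of 1.21 (SE 0.30, adjusted p = 0.0237). Neither call was firm. Leaving out CON 2 or any KO library ended that of Phlda3 (highest adjusted p 0.0838), and leaving out CON 2, CON 3, KO 2 or KO 3 ended that of Tnfrsf10b (highest 0.120).

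The best known killers among the targets did not pass. Bax, the pore-forming effector, had 1991, 3099.9 and 2909 in CON and 3689.9, 2883 and 2485 in KO, with overlapping ranges (log2 difference 0.17, interval -0.34 to 0.69, adjusted p = 0.691). Bbc3, which encodes the BH3-only protein PUMA, ranged from 7.37 to 220.3 in CON and from 9.51 to 75.4 in KO (-0.45, interval -1.32 to 0.42). Pmaip1, the gene of the BH3-only protein NOXA, had 171, 119.6 and 298 in CON and 606, 400.4 and 264 in KO (0.73, interval 0.06 to 1.40, adjusted p = 0.154). Trp53inp1, which encodes a p53-induced nuclear and autophagy protein, stood at 200.4 ± 192 in CON and 543 ± 248 in KO (SD, n = 3 each). Its difference of 1.09 (adjusted p = 0.103) was called without CON 1 (1.53, adjusted p = 0.0158).

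Fas, the death receptor gene, pointed the other way. It had 886, 1029 and 943 in CON and 797, 453 and 645 in KO, every KO value below every CON value, without passing the test (-0.51, interval -1.04 to 0.01, adjusted p = 0.202). Aen, the gene of an apoptosis-enhancing nuclease, had 1468, 1451 and 1645 in CON and 1688, 2016 and 2069.8 in KO. Its groups did not overlap either, at a difference of 0.31 (adjusted p = 0.370). Ei24 ranged from 288 to 447 in CON and from 316 to 586 in KO.

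**Figure D2:**
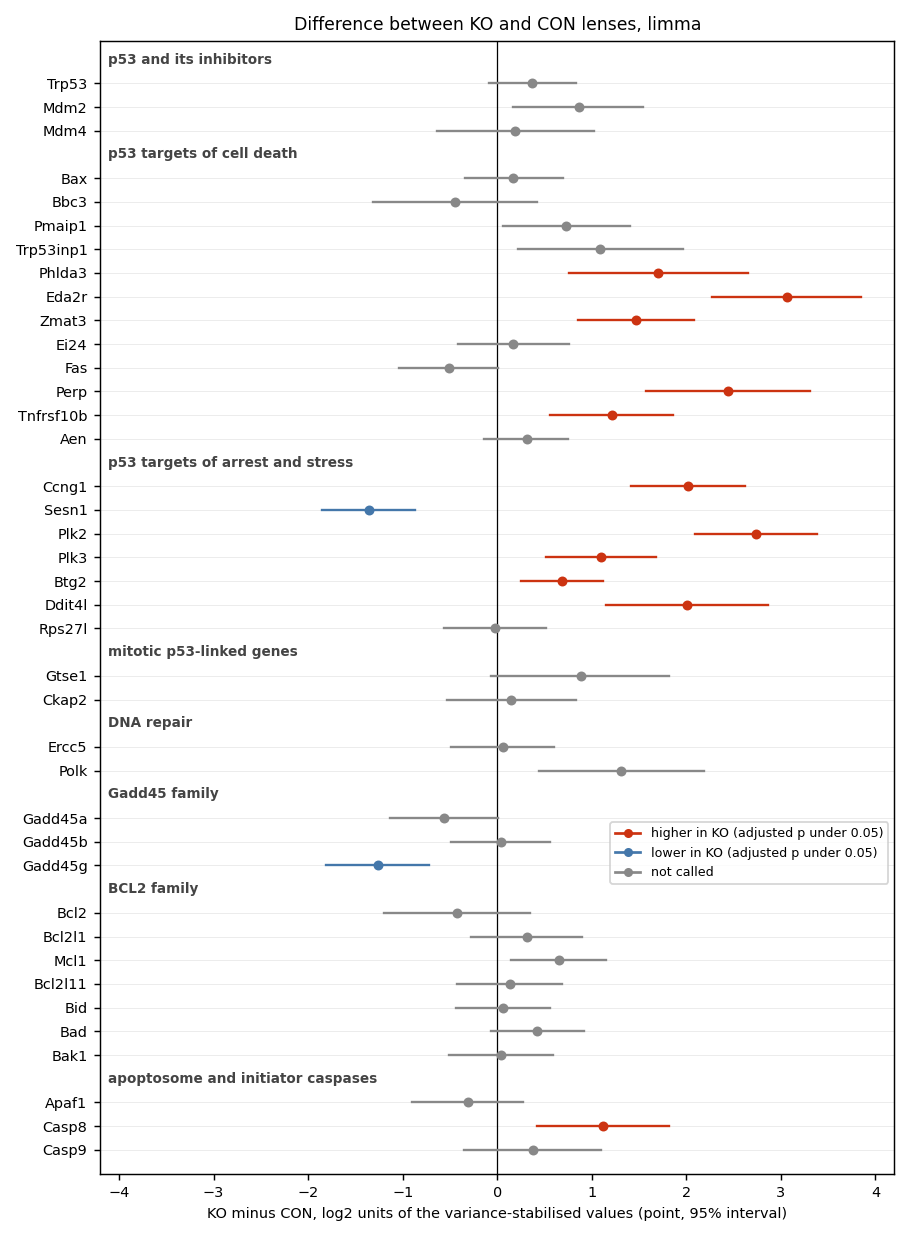
Points are log2 differences of KO minus CON on the variance-stabilised scale and lines their 95% intervals, by gene and role (red, higher; blue, lower; grey, not called). Most red points are in the p53 target classes, up to 3.06 for Eda2r, while all 7 genes of the BCL2 family are grey.

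Of the 7 targets of arrest and stress 5 rose, 1 fell and Rps27l did not pass (median log2 difference 1.10). Over all tested genes 6.91% rose and 4.39% fell. This list was made with earlier results of these data known, so its count is no independent result. Ccng1 encodes cyclin G1, which feeds back on MDM2. It had 9081, 4453 and 5443 normalised reads in CON and 19037, 27032 and 30428 in KO (4.03-fold, log2 difference 2.02, SE 0.28, adjusted p = 0.00124). The lowest KO library lay far above the highest CON library. Plk2, a polo-like kinase gene, had 213, 123 and 379 in CON and 3235, 2012 and 2033 in KO (10.2-fold, log2 difference 2.74, SE 0.30, adjusted p = 0.000293). It was called under all 18 alternatives, and no other of the 39 was.

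Its relative Plk3 had 111, 81.8 and 161 in CON and 302, 442 and 482 in KO, a log2 difference of 1.10 (SE 0.27, adjusted p = 0.0216). Ddit4l, whose product dampens mTOR signalling, had 6.33, 0 and 136 in CON and 516, 426 and 329.8 in KO, a log2 difference of 2.01 (SE 0.39, adjusted p = 0.00771). Btg2, an antiproliferative gene, showed the smallest rise with the tightest libraries, from 1156, 1315 and 1199 to 1956, 2066 and 2184 (1.69-fold, log2 difference 0.68, SE 0.20, adjusted p = 0.0464). Plk3 was no longer called when CON 2, KO 2 or KO 3 was left out (highest adjusted p 0.115), nor was Btg2 when any library but CON 1 was (highest 0.211). Btg2 was also lost with the replicate number as a block (adjusted p = 0.162).

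Sesn1 was the only one of the 19 p53 targets of death and of arrest that fell. It encodes sestrin 1, a stress protein that restrains mTOR complex 1. It had 3756, 2694 and 3378 in CON and 1397, 926 and 1207 in KO (0.359 of the CON mean, log2 difference -1.36, SE 0.22, adjusted p = 0.00347), and the groups were far apart. The call held without each single library (adjusted p up to 0.0274). Its relative Sesn2, taken from the wider pathway list, stood at 146 ± 57.8 in CON and 194 ± 100.3 in KO (SD, n = 3 each; adjusted p = 0.752). Rps27l, a ribosomal protein gene and p53 target with a near-identical relative, had 4038, 7679 and 6547 in CON and 6296, 5067 and 6098 in KO (-0.02, interval -0.56 to 0.52). Its reads may not be fully separable from those of the relative.

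The genes that carried the best matching sites thus moved in different ways. Of the 3 with at most 1 letter off, Ccng1 rose and Rps27l and Gtse1 did not pass. Of the 4 with 2 letters off, Sesn1 fell and Bax, Ckap2 and Gadd45a did not pass. No window was at hand for Perp, Tnfrsf10b and Zmat3, which rose, or for Pmaip1 and Trp53inp1, so these genes were not searched.

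**Figure D3:**
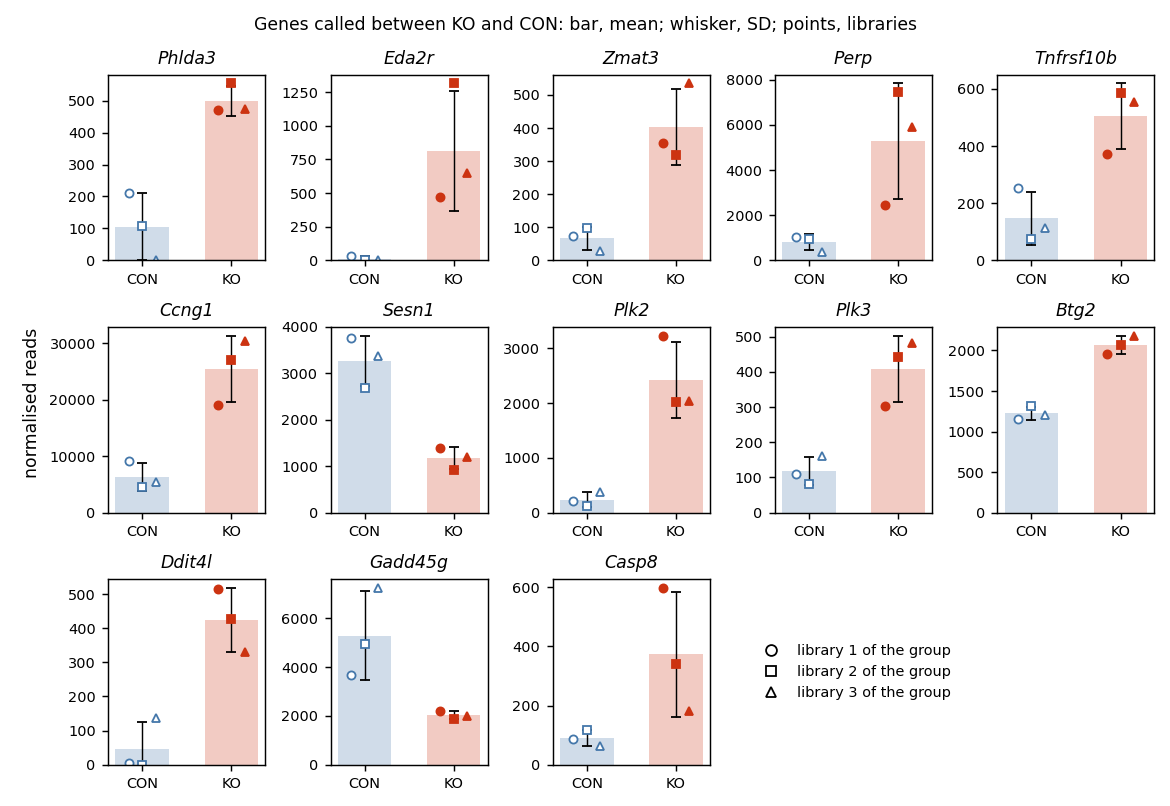
Normalised reads of the 13 called genes on linear axes from 0, with the mean (bar), the SD (whisker, n = 3) and each library (points). In every panel the KO points lie wholly above the CON points, or wholly below them for Sesn1 and Gadd45g. KO 1 is the lowest KO library for Perp (2449), and the highest for Casp8 (598).

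Gtse1 and Ckap2, which encode spindle-associated proteins of dividing cells, did not pass. Gtse1 had 213, 0 and 72.3 in CON and 235, 231 and 138 in KO, a log2 difference of 0.88 (interval -0.07 to 1.82), and was called without CON 1 (1.35, adjusted p = 0.0389). Ckap2 had 405, 321 and 305 in CON and 723, 335 and 239 in KO, so that KO 1 alone stood out. Reads of 15 cell cycle genes, summed, were also highest in KO 1 (19080.3, against 8105 to 11651 in the other libraries). None of the 15 was called, where 11.3% of all tested genes were. What dividing cells contribute to the Ckap2 value was not tested. Of the repair genes, Polk, the gene of translesion DNA polymerase kappa, had 102, 0 and 61.9 in CON and 138, 445 and 237 in KO (1.31, SE 0.40, adjusted p = 0.0573). It was called without CON 1 (1.61, adjusted p = 0.0290). Ercc5, which encodes the excision repair nuclease XPG, ranged from 387 to 589 in CON and from 408 to 606 in KO.

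The Gadd45 genes, small stress-induced regulators of p38 and JNK signalling, did not move together. Gadd45g fell, from 3657, 4947 and 7242 in CON to 2195, 1866 and 1994 in KO (0.382 of the CON mean, log2 difference -1.26, SE 0.25, adjusted p = 0.00794). The KO libraries agreed closely, the CON libraries spread over a wider range, and the call held without each single library (adjusted p up to 0.0416). Gadd45a, the classical p53 target of the family, had 153, 271 and 204 in CON and 127, 84.2 and 87.7 in KO. Every KO value was below every CON value, at a difference that did not pass (-0.56, interval -1.13 to 0.01, adjusted p = 0.198). Gadd45b stood at 2099.6 ± 637 in CON and 2112 ± 289 in KO (SD, n = 3 each; 0.04, interval -0.49 to 0.56).

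None of the 7 BCL2 family genes was called by limma. With 11.3% of all tested genes called, a list of 7 would hold few calls at that share. An unadjusted p under 0.05 was found for 3024 of all 11468 tested genes and for 1 of the 7. That was Mcl1, a survival gene with a short-lived product, which had 603, 812 and 994 in CON and 1257, 1294 and 1449 in KO. The groups did not overlap (log2 difference 0.65, interval 0.15 to 1.15, adjusted p = 0.095). Mcl1 was called by voom with reads outside crystallins (0.99, adjusted p = 0.041) and with total reads (1.59, adjusted p = 0.00562), but not with size factors (0.80, adjusted p = 0.0943). Bcl2l1, the BCL-XL gene, had 2221, 1359.5 and 1235 in CON and 1452, 2093 and 2511 in KO (0.31, interval -0.28 to 0.90). Bcl2 itself was low and uneven in CON, at 57.0, 229.7 and 378, and stood at 142, 86.0 and 102 in KO (-0.43, interval -1.20 to 0.35).

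Among the promoters of death in this family, Bad had 1156, 1507 and 1891 in CON and 1820.5, 2123 and 2256 in KO (0.42, interval -0.07 to 0.92), and was called by voom with total reads (1.29, adjusted p = 0.00853). Bid stood at 954 ± 62.9 in CON and 1018 ± 227 in KO, Bcl2l11, the gene of BIM, at 154 ± 39.6 and 178 ± 25.3, and the effector gene Bak1 at 610.3 ± 131 and 635 ± 166 (SD, n = 3 each). The intervals of these 3 differences reached from -0.51 at the lowest to 0.68 at the highest. A change of 1 log2 unit in either direction lay outside them, on the variance-stabilised scale.

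Casp8, the initiator caspase of death receptors, rose from 88.7, 116 and 61.9 in CON to 598, 339 and 182 in KO (4.19-fold, log2 difference 1.12, SE 0.32, adjusted p = 0.0431). The KO libraries lay above CON but far apart from each other. The call held only without KO 3 and was lost without each of the other 5 libraries (adjusted p up to 0.149). Most macrophage markers were also higher in KO. The summed reads of 20 such markers were 34066, 16290.3 and 9795 in KO 1 to 3, the same order as Casp8, against 3185 to 5577 in CON. Of the 18 tested, 13 were higher (72.2%), against 6.91% of all tested genes. All 20 had reads in every KO library, among them the leukocyte gene Ptprc (339, 171 and 103), while 3 had none in CON 2 and 2 none in CON 3. Summed pigment cell (18373, 15422 and 11735), endothelial and pericyte (3996, 1948 and 1019), red cell (3615, 3368 and 2253) and cell cycle genes (19080.3, 11589 and 8105) had the same order over KO 1, KO 2 and KO 3. Against CON they differed. Pigment cell sums were higher in KO (CON 8557 to 10972) and red cell sums lower (CON 4414 to 6817). Endothelial and pericyte sums (CON 1985 to 2429) and cell cycle sums (CON 8807 to 11651) overlapped. The part of any of these in the Casp8 result was not tested. Casp9 had 508, 145 and 246 in CON and 257, 485 and 489 in KO (0.38, interval -0.35 to 1.10, adjusted p = 0.520). Apaf1, its scaffold, had 170.0, 229.7 and 136 in CON and 73.1, 142 and 144 in KO (-0.31, interval -0.90 to 0.27).

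The wider pathway was read from lists named by function. Of 17 genes for kinases, deubiquitinases, cofactors and relatives of p53, 13 passed the filter on low values, among them Atm, Chek2, Usp7 and Ep300. None of the 13 was called by limma, where 11.3% of all tested genes were (median difference -0.00). An unadjusted p under 0.05 was found for 0 of the 13 and for 3024 of all 11468 tested genes. The checkpoint kinase gene Chek1 was too low for the filter and was not tested, although its groups were far apart. It had no reads in CON 1 and CON 2, 5.90 normalised reads in CON 3 (4 reads), and 101, 209.8 and 147 normalised reads in KO 1 to 3. Of 17 other tested p53 targets 3 rose and 1 fell (median -0.04), which is 17.6% and 5.88%, against 6.91% and 4.39% of all tested genes. Gdf15, a secreted stress cytokine gene, stood at 7.10 ± 6.26 in CON and 730.5 ± 293 in KO (SD, n = 3 each; adjusted p = 0.000255). Psrc1 went from 47.8 ± 18.3 to 273 ± 77.3 (SD, n = 3 each; adjusted p = 0.0120), Sulf2 rose with an adjusted p of 0.0467, and Thbs1, the thrombospondin 1 gene, fell from 625 ± 281 to 129 ± 34.1 (SD, n = 3 each; adjusted p = 0.0111). For comparison, Cdkn1a, the p53 target that encodes the cell cycle inhibitor p21 and is not counted among the 39, stood at 105 ± 58.2 in CON and 7126 ± 772 in KO (SD, n = 3 each).

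Of 28 other tested apoptosis genes 3 rose and 2 fell (median 0.17). These are 10.7% and 7.14%, not far from the 6.91% and 4.39% of all tested genes. Tnfrsf1a, the tumour necrosis factor receptor gene, rose from 92.1 ± 77.0 to 572 ± 197, and Xiap, which encodes an inhibitor of caspases, from 481 ± 112 to 1155 ± 79.5 (SD, n = 3 each; adjusted p = 0.00837 and 0.0141). Casp6, an effector caspase gene, had 443, 607 and 481 in CON and 1374, 801 and 816 in KO, without overlap, and did not pass (0.76, adjusted p = 0.0815). Bnip3, a mitochondrial BCL2 relative linked to mitophagy, fell from 9987 ± 2549.8 to 4504 ± 442 (SD, n = 3 each, adjusted p = 0.0104), and Bcl2a1b rose (adjusted p = 0.00302). With 0, 0 and 38.3 in CON 1 to 3, Bcl2a1b passed the filter through its KO values, on which its call also rests.

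Other signals moved in the same libraries. Of 12 tested immediate early genes, which cells switch on within minutes of a stimulus, 9 rose and none fell (median 1.71). Over all tested genes 6.91% rose. Fos went from 52.6 ± 61.1 in CON to 2512 ± 939.8 in KO and Atf3, a stress-responsive factor gene, from 66.2 ± 56.2 to 1429 ± 225 (SD, n = 3 each, adjusted p = 0.000181 for both). Genes as low in CON as Fos (0, 119.6 and 38.3 in CON 1 to 3) passed the filter through their KO values. Their calls, and their part in the count, rest on those same values. The summed normalised reads of all 16 on the list were 5606 to 6461 in CON and 14939 to 21237 in KO. Btg2, Plk2, Plk3, Mcl1, Gadd45a and Gadd45b are known to respond to the same stimuli. Of these, Btg2, Plk2 and Plk3 rose and the others did not pass. Gadd45g, of the same family as Gadd45a and Gadd45b, fell (log2 difference -1.26, adjusted p = 0.00794 by limma). The part of that response in the values of these genes was not tested. Of 5 tested retinal markers 2 rose (40.0%, against 6.91% of all tested genes). The summed reads of all 11 on the list were 2175 to 2339 in CON and 6553 to 8359 in KO. Of 5 T and natural killer cell markers, 3 or 4 had no reads in each library. The part of these cells was not tested.

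The spread between CON libraries was wide for many of the 39. The coefficient of variation was larger in CON than in KO for 29 of them, a share like that of all tested genes (8517 of 11468). The medians were 33.5% and 24.0%, close to the medians of 32.9% and 20.9% over all tested genes. CON 2 had no reads for Polk, Gtse1, Ddit4l and Eda2r, and CON 3 had none for Phlda3 and Eda2r, while every KO library had reads for all 39. The numbers of genes with any read were 13590 to 15203 in CON and 16281 to 17093 in KO.

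The calls depended on the scaling for part of the genes. With voom on recovered reads scaled by the same size factors, 4 of the 39 were higher (Ccng1, Perp, Plk2 and Zmat3) and 2 lower, where 3.67% of all tested genes were higher and 4.12% lower. With reads divided by the library total, where the crystallin share enters and the median of all tested genes stood at 0.86, 18 were higher and none lower by voom, where 28.9% of all tested genes were higher and 0.741% lower. Sesn1 and Gadd45g were then at -0.68 (adjusted p = 0.0709) and -0.51 (adjusted p = 0.0791), against -1.51 and -1.33 by voom with size factors, where the median of all genes was 0.03. They kept their sign, and their distance below the median of all genes was about the same in both voom fits. Fas, Bcl2, Apaf1 and Bbc3 turned to values above 0, all below that median. The rises of Ccng1, Perp, Plk2 and Zmat3 were called under all 6 scalings. KO 2 and KO 3 share a style of library name that no other library has, and with that style as a covariate, which leaves KO 1 alone against CON, Eda2r and Plk2 were higher and none of the 39 was lower by limma (1.78% and 0.34% of all tested genes).

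**Figure D4:**
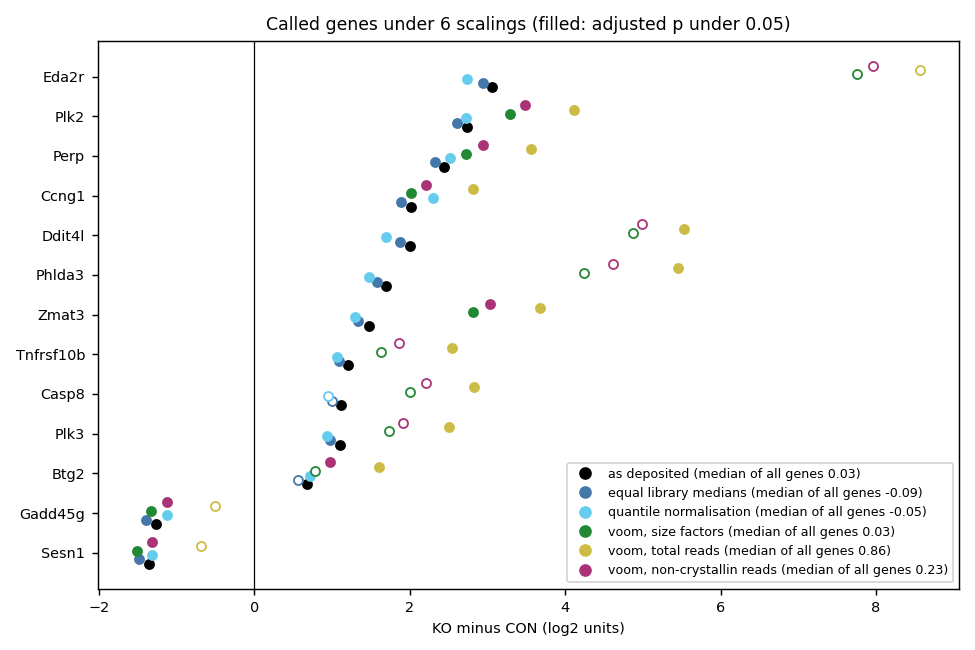
Log2 differences of the 13 called genes under 6 scalings, in colours, with filled points for an adjusted p under 0.05 and open points otherwise. Plk2, Perp, Ccng1 and Zmat3 are filled throughout, Eda2r is open under the 3 voom fits, and Gadd45g and Sesn1 move towards 0 when reads are divided by the library total, where the median of all genes is 0.86.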

How the data were processed

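RNA sequencing was analysed from 6 mouse lens libraries. The submitters' processing notes name Trimmomatic, HISAT2 2.1.0, featureCounts 1.6.4, DESeq2 (as 2.11.0.6) and the build mm9. The authors deposited variance-stabilised log2 values. The transformation was inverted in closed form. Of the recovered read numbers 100.0% were whole within 0.1, and the size factors, 0.3178 to 1.892, matched median-of-ratios factors. Symbols came from RefSeq (GRCm38.p6; 25275 of 27179 identifiers matched, joined by Entrez identifier) and exon lengths from GENCODE. KO was compared with CON in limma 3.58.1 (R 4.3.3; eBayes with a mean-variance trend; prior degrees of freedom 7.6), for genes with a mean at least 1 log2 unit above the lowest value, 6.504. The mean for this filter was taken over all 6 libraries, so genes near 0 in CON could pass through their KO values. The fit was tested on simulated data. Intervals are 95%.

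The 39 genes and all lists were chosen with earlier results of these data known. Full values are given for called genes, for Trp53, Mdm2, Bax and Casp9, and for genes whose groups do not overlap. Up to 2 called genes per direction, by smallest p, are named from each wider list. Sulf2, Sesn2, Casp6, Chek1, Ptprc, Spi1 and the Bcl2a1 copies were named after their values were seen. Some genes of the wider lists are counted but not reported here by name. Equal replicate numbers correlated at -0.364, -0.128 and -0.14 in their deviations, so no pairing was used. 18 alternatives were run, of which 2, the reads outside crystallins and the style of library name, were chosen after seeing the data. Depth is given as reads in genes, and reads without molecular identifiers are not molecules.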

Additional observations from a re-analysis of the deposited data

How the results depend on the processing

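Plk2 kept its call in all 18 alternatives, and the 13 called genes kept their direction in each one that tested them. Of the 39, 11 were higher and 2 lower. The numbers higher and lower were 4 and 2 with a filter of 3 units, which tested 18 of the 39, 4 and 2 with voom and size factors, 18 and 0 with voom and total reads, 6 and 2 with voom and reads outside crystallins, 7 and 2 with log2 of normalised reads plus 1, and 2 and 0 with library name style as covariate, a fit that sets KO 1 alone against CON. With the replicate block they were 10 and 2, with Btg2 the call that was lost. With single libraries left out, 6 to 14 were higher, and the number lower stayed at 2. Over all tested genes, 793 higher and 504 lower became 340 higher with a filter of 3 units, 421 higher with voom and size factors, 3314 and 85 with total reads, 292 lower with reads outside crystallins, 1219 and 933 with library weights, 309 lower with the replicate block and 204 and 39 with library name style. With single libraries left out they ran from 328 to 1106 higher and from 170 to 857 lower. The share of higher genes among the calls was 61.1%, and 47.3% with equal library medians, 47.1% with voom and size factors, 42.4% with a filter of 3 units, 71.3% with no filter, 84.0% with library name style and 97.5% with total reads. The cause of these shifts was not tested, beyond the smaller number of genes or libraries in a fit.

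Signs turned for genes that were not called. With equal library medians Ercc5 was at -0.066, Gadd45b -0.088, Bak1 -0.086 and Bid -0.062. With quantile normalisation Ercc5 was at -0.064, Bak1 -0.067, Bcl2l11 -0.04 and Rps27l 0.22. With voom and size factors Mdm4 was at -0.0051, Bak1 -0.018 and Rps27l 0.01. With total reads Bcl2 was at 0.26, Apaf1 0.27, Fas 0.23, Bbc3 0.20 and Rps27l 0.86 (adjusted p = 0.00719). With reads outside crystallins Rps27l was at 0.23, and with library weights Ckap2 at -0.035. With library name style Ercc5 was at -0.14, Bak1 -0.26, Bcl2l11 -0.013, Bcl2l1 -0.089, Casp9 -0.056, Bid -0.25 and Rps27l 0.095. With single libraries left out, values lay on both sides of 0 for Bax (-0.0099 to 0.30), Ercc5 (-0.06 to 0.19), Mdm4 (-0.30 to 0.52), Gadd45b (-0.11 to 0.25), Bak1 (-0.11 to 0.19), Rps27l (-0.28 to 0.17), Ckap2 (-0.18 to 0.40), Ei24 (-0.034 to 0.30) and Bid (-0.063 to 0.22). CON 2, the shallowest library, limits what can be said of genes with few reads.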

Other observations

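The Bcl2a1 genes, close copies that encode a survival relative of BCL2 found mostly in blood cells, had few or no reads in CON lenses. Bcl2a1a had a single read among the CON libraries, in CON 3 (1.47 normalised reads), and 61.3 ± 62.9 normalised reads in KO (SD, n = 3). Bcl2a1d had none in CON and 61.0, 15.0 and 14.8 in KO. Bcl2a1b had 0, 0 and 38.3 in CON and 732, 364 and 209.8 in KO. Bcl2a1a and Bcl2a1d had too few reads to be tested, and reads of such copies may not be fully separable. KO 1, with the most reads of macrophage markers (34066), also had the highest value of each.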
